A study of Mus musculus with 6 samples.

Results

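Malat1 was read by 5 spotted cDNA clones on the array, out of 36022 clones in all and 22364 clones with 1 named gene. The clones were taken by their gene symbol in the deposited probe annotation, and all 5 were among the 28710 clones that had values on at least 4 of the 6 arrays. The gene was chosen by its log2 ratios of knockout over wild type on these same arrays, so those ratios are given below as a description and carry no test.

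The study compared adrenal glands of mice with and without PACAP, the neuropeptide that Adcyap1 encodes and that splanchnic nerve endings release onto the chromaffin cells of the medulla. Each of the 6 arrays held 1 RNA of wild-type glands (129XC57BL6 PACAP +/+ F2, labelled with Cy5, the red channel) and 1 RNA of knockout glands (129XC57BL6 PACAP -/- F2, labelled with Cy3, the green channel), and on no array were the dyes exchanged, so a genotype difference and a dye effect of a clone cannot be told apart. The RNA was total RNA copied with random primers, so a transcript without a poly(A) tail could be labelled. The labels number the arrays as repeats 1 to 6, and the number of animals per RNA, their age and their sex are not given in the sources used here, so the spread between arrays may be technical in part.

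Malat1 is a long noncoding RNA that stays in the nucleus, where it gathers at nuclear speckles, the bodies rich in pre-mRNA splicing factors. It is among the most abundant noncoding RNAs of mammalian tissues and has no ordinary poly(A) tail: RNase P cuts its precursor at a tRNA-like element, RNase Z trims the released small RNA, and a triple helix protects the new end of the long RNA. Neat1, the scaffold of the paraspeckles, is its neighbour on the chromosome. PACAP acts on chromaffin cells largely through cyclic AMP, which activates the transcription factor CREB.

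The sequences of the 5 clones were not used here. The start of the gene is shown in their place, because PACAP is known to signal in part through CREB, which binds a motif whose shorter form is TGACG, or CGTCA on the other strand. The RefSeq window from 250 bases before to 50 bases after the start of Malat1 (GRCm38.p6, minus strand, chr19:5802623-5802922) reads as follows, with each such match in capitals.
Malat1 promoter: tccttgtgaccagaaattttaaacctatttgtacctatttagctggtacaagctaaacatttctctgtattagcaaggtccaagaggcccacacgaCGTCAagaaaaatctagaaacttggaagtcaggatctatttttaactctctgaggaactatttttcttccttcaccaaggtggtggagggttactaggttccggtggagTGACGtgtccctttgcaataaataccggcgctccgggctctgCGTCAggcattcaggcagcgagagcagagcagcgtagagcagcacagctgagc
The window held 3 matches, whose first letters lay 154, 45 and 3 bases upstream of the start. Of the 32851 RefSeq windows of this length, 20.8% held at least 1 match and 1.03% held at least 3. The full palindrome of the motif was not in the window and was in 1.79% of all windows. These are matches of letters and not measured binding sites.

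The red channel was the weaker one and differed most between arrays. Intensities are given after background subtraction, so the ratios that follow set the remaining signal beside the background already removed. The median red intensity of all spots was 1.11 to 4.57 times the local background. It was lowest on arrays 4 and 2 (1.11 and 1.32) and highest on array 1. The median green intensity was 5.15 to 6.79 times its background. The clone of the targeted gene, Adcyap1, passed the quality score on 2 of the 6 arrays and was not tested. Its red (wild-type) intensities were 82.6 to 162.5 on the 5 arrays other than array 2 and 27.5 on array 2, and its green (knockout) intensities were 129.6 to 327.0, so it gave no check of the labels. The sources used here do not say whether this clone lies in the stretch deleted in the knockout. Markers of the gland were measured: 7 of 13 cortex markers were measured at a median signal percentile of 86.1, led by the steroidogenic enzyme Hsd3b1 at 99.4, and 6 of 12 medulla markers at a median percentile of 86.3, led by chromogranin A (Chga) at 95.0. Some single markers of other cells were as bright, with Mbp of Schwann cells at the 97.3, Col1a1 of fibroblasts at the 95.9 and Lrp2, the only kidney marker measured, at the 85.8 percentile. As lists these cells were dimmer. The median percentile was 6.2 for Schwann and sustentacular cells, 29.2 for endothelium, 49.9 for erythroid cells, 67.8 for fibroblasts and capsule and 68.8 for macrophages. The only adipocyte marker measured was at 1.8. With global loess, which fits 1 curve of ratio against signal to each array, 4 cortex markers were called higher in the knockout and 0 lower, and 4 medulla markers higher and 1 lower, where 16.2% of all clones tested were called higher and 14.2% lower. With print-tip loess, in which every print block gets a curve of its own, the calls were 3 higher and 0 lower for cortex and 2 higher and 1 lower for medulla. Among markers of other cells, global loess called 2 of 5 for macrophages and 2 of 7 for endothelium higher, and 2 of 6 for fibroblasts and capsule higher and 2 lower, while 0 were called for erythroid cells (3 measured), adipocytes (1), Schwann and sustentacular cells (6) and kidney (1). Less RNA per cell and fewer cells of a type cannot be told apart in whole glands, and the part of the cell make-up in the Malat1 ratios was not tested.

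By brightness the Malat1 clones fell into 4 bright clones and 1 dim clone. The mean log2 signal of both channels was 14.22 for AI851276, which 79 of the tested clones exceeded, 14.2 for AW538859, which 83 exceeded, 14.04 for AU018549, which 100 exceeded, and 13.56 for AI845688, which 195 exceeded. AI853651 had a mean log2 signal of 7.72, at the 14.0 percentile of the tested clones, with 24700 clones brighter. The dim clone thus lacked the brightness that the other 4 clones shared.

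The names that the scanner files give to these spots also differed from the annotation. Only AU018549, in print block 33, carried a title (RIKEN cDNA 9430072K23) that RefSeq lists as an older name of Malat1. AI845688, in block 32, was titled RIKEN cDNA A230102P12, an older name of Tecr, an enzyme of fatty acid elongation. AI851276, in block 35, was titled RIKEN cDNA 1700023M09, an older name of the gamma-secretase subunit gene Psenen. The dim clone AI853651, in block 48, was titled RIKEN cDNA 1500011L16, an older name of the phosphatase gene Ssu72, and AW538859, in block 19, had no title. The annotation assigned all 5 to Malat1 through the accessions BE860006, BE656573, BE655708, BG082280 and BG077117 for AI845688, AI851276, AI853651, AU018549 and AW538859. Which RNA each of the 4 clones without a Malat1 title reads was not tested.

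Other clones with the same titles did not share the brightness of AI845688 and AI851276. The Psenen clone AW557669 had a mean log2 signal of 9.72 and a log2 ratio of -0.44. Clones AW549909 and AI839524, listed under Tecr and a second gene, had signals of 9.78 and 9.5 and log2 ratios of 0.47 and 0.45. A clone listed under Ssu72 and a second gene, AU042111, had a signal of 8.83 and a log2 ratio of -0.05. The exception was AI853644, which has the same title as AI851276 and no listed gene, and which is described with the ratios below.

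In the knockout (green) channel the bright Malat1 clones stayed high on all arrays. AI851276 read 51869.7, 46897.9, 49307.3, 34191.5, 35658.4 and 59262.2 intensity units on arrays 1 to 6. AU018549 read 36810.3, 41587.7, 50872.3, 38213.4, 28726.1 and 48760.4. AW538859 read 35669.9, 26770.2, 32240.1, 29156.6, 31915.4 and 45791.7. The lowest array differed between these clones: array 4 for AI851276, array 5 for AU018549 and array 2 for AW538859. AI845688 read 43932.0, 25019.4, 36487.5, 23409.9, 17062.6 and 57098.3, with the lowest green value of the bright clones, 17062.6, on array 5. Within an array, the highest of the 4 green values was 1.29 to 2.09 times the lowest. On array 6, where this factor was 1.29, the 4 clones were at 71.3% to 92.3% of the highest green value of the array. Whether the upper end of the scanner range held the green values together was not tested.

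In the wild-type (red) channel the same clones differed more between arrays. AI845688 read 25321.9, 1628.3, 11624.9, 892.7, 7720.4 and 3121.0 on arrays 1 to 6. AI851276 read 33516.9, 4029.0, 12961.7, 1799.1, 14573.9 and 6020.4. AU018549 read 30884.5, 2232.2, 16857.4, 1529.6, 9230.6 and 7508.3. For these 3 clones arrays 4 and 2 were the lowest and array 1 the highest. AW538859 read 26803.8, 10288.7, 12238.7, 7794.5, 16033.1 and 3488.6, so that its lowest array was array 6 and its values on arrays 2 and 4 lay above those of the other 3 bright clones. Between the 4 bright clones the highest red value was 1.32 times the lowest on array 1 and 1.45 times on array 3, but 6.32 times on array 2, 8.73 times on array 4, 2.08 times on array 5 and 2.41 times on array 6. The red values thus lay further apart than the green ones on arrays 2, 4 and 6, and on arrays 1, 3 and 5 they did not.

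**Figure D1:**
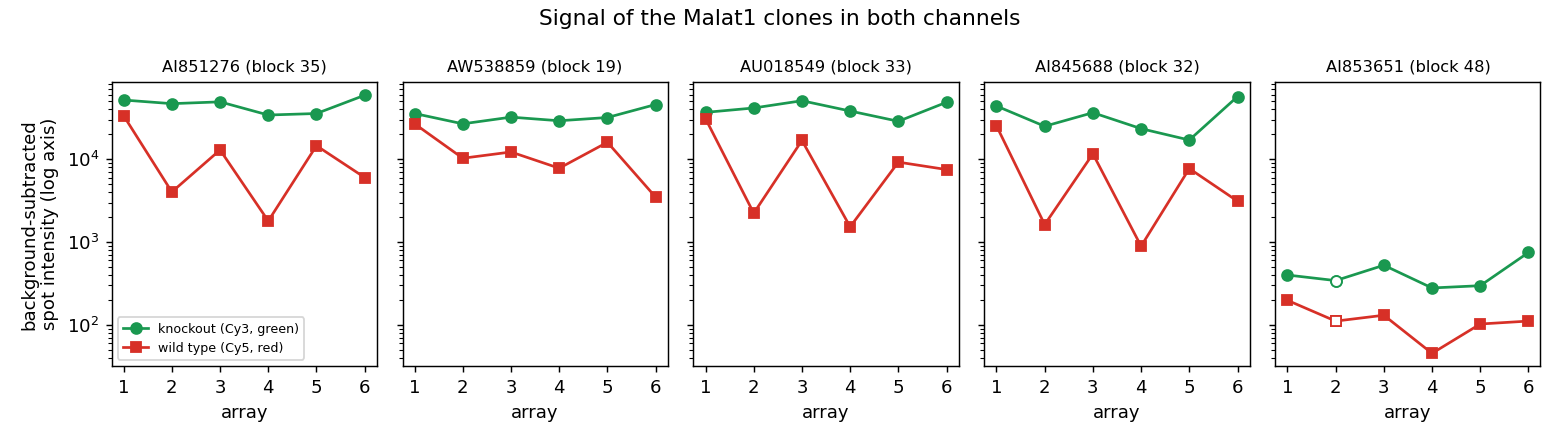
Background-subtracted spot intensity (vertical log axis, scanner units) of the 5 Malat1 clones on arrays 1 to 6 (horizontal axis), green circles for the knockout channel and red squares for the wild-type channel. Open symbols mark array 2 of AI853651, which fell below the quality threshold. Green stays at 17062.6 or more in the 4 bright clones, while red drops on arrays 2 and 4 in AI851276, AU018549 and AI845688 and far less in AW538859.

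The drop of the red channel was set beside that of other bright spots. Of the 210 spots with a red intensity of at least 20000 on array 1 that had values on array 4, the median spot was 4.29 times dimmer in red on array 4. AI845688 was 28.4 times dimmer, and 0 of these spots fell more. AU018549 was 20.2 times dimmer with 2 spots falling more, and AI851276 was 18.6 times dimmer with 3 spots falling more. AW538859 was 3.44 times dimmer, and 122 spots fell more. On array 2, where the median over 206 such spots was 3.16, the falls were 15.6 for AI845688, 13.8 for AU018549, 8.32 for AI851276 and 2.61 for AW538859. AI845688, AU018549 and AI851276 thus lay at the far end of the bright spots in the red channel of array 4, and AW538859 lay near their middle. In green, the intensity on array 1 was 1.88 times that on array 4 for AI845688, 1.52 times for AI851276, 1.22 times for AW538859 and 0.963 times for AU018549, with a median of 1.07 over the same spots.

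After global loess normalization, the log2 ratio of knockout over wild type was above 0 for every Malat1 clone on every array measured. AI845688 had ratios of 0.81, 3.10, 0.90, 3.58, 0.18 and 2.43 on arrays 1 to 6, with a mean of 1.83 ± 0.36 (SE, n = 6 arrays), a 3.56-fold difference. The SE here and below is the moderated SE of limma, which draws the variance of each clone towards that of all clones. AI851276 had ratios of 0.67, 2.88, 1.20, 3.26, 0.37 and 1.49, with a mean of 1.64 ± 0.31 (SE, n = 6), or 3.13-fold. AU018549, the clone with a Malat1 title, had ratios of 0.27, 3.47, 0.88, 3.65, 0.69 and 0.89, with a mean of 1.64 ± 0.38 (SE, n = 6), or 3.12-fold. In each of these 3 clones arrays 2 and 4 stood above all others, and in AI845688 array 6 came close. The plain SD over arrays was 1.39 for AI845688, 1.18 for AI851276 and 1.5 for AU018549, a wider spread than the moderated SE conveys.

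AW538859, as bright as the 3 clones above, had smaller ratios of 0.42, 0.76, 0.64, 1.10, 0.07 and 1.96, with a mean of 0.82 ± 0.19 (SE, n = 6), or 1.77-fold, and its highest value was on array 6. The dim clone AI853651 had ratios of 0.51, 0.61, 0.41, 0.29 and 0.39 on arrays 1, 3, 4, 5 and 6, with a mean of 0.44 ± 0.13 (SE, n = 5), or 1.36-fold. Its array 2 value was left out at a quality score of 0.2. The plain SD over arrays was 0.65 for AW538859 and 0.12 for AI853651. All 5 clones passed the limma threshold and all 5 were higher on every array measured. Since the rule used these ratios, nothing is read from either count: 16.2% of all clones tested were called higher and 15.2% were higher on every array measured, while 15.3% were lower on every array measured.

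The mean over the Malat1 clones was 1.28 on the log2 scale, a 2.42-fold difference, and the median clone was 1.64. By array, the mean over clones was 0.54, 2.55, 0.84, 2.40, 0.32 and 1.43, with an SD over arrays of 0.95. The array 2 value is over 4 clones, without AI853651. Over the same 4 bright clones array 4 was at 2.90, above the 2.55 of array 2. Over the 4 bright clones alone the mean was 1.49 with an SD over arrays of 1.07. The SD over arrays thus came near the size of the mean, and the clones of the gene share each array and its RNA, so they are not replicates of the genotype.

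**Figure D2:**
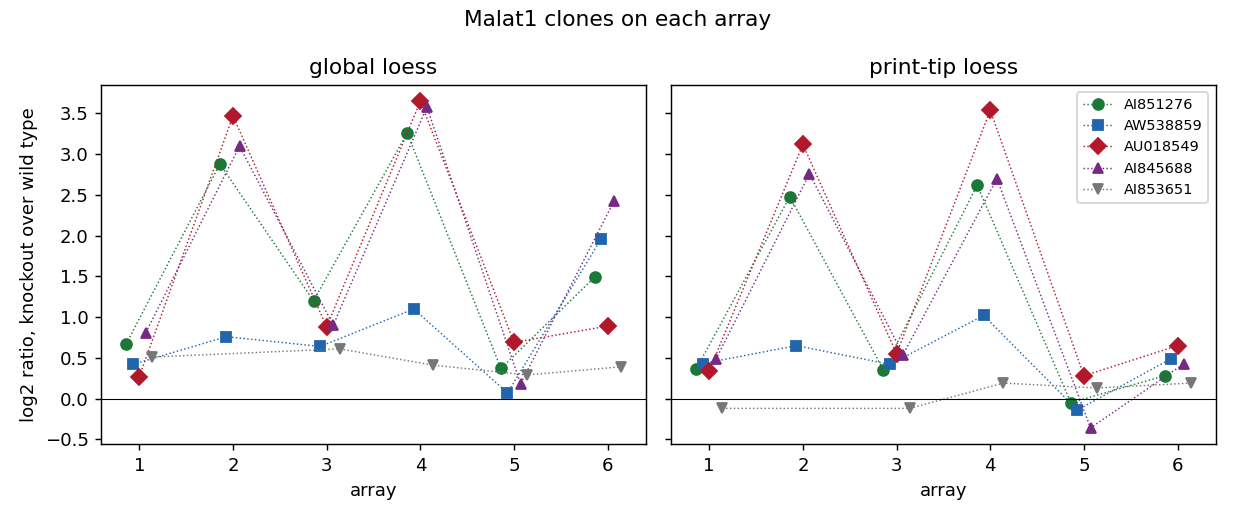
Log2 ratio of knockout over wild type (vertical axis) of the 5 Malat1 clones on arrays 1 to 6 (horizontal axis), after global loess (left) and print-tip loess (right); points of 1 clone are joined. AU018549, AI845688 and AI851276 reach 2.88 to 3.65 on arrays 2 and 4 with global loess and 2.48 to 3.54 with print-tip loess, while AW538859 lies at 0.65 to 1.10 there.

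Arrays 2 and 4 stood apart in 3 of the bright clones. The mean of these arrays minus the mean of the other 4 arrays was 2.88 for AU018549, 2.26 for AI845688, 2.14 for AI851276 and 0.15 for AW538859. Among the 429 clones of signal 13 or more that had values on all 6 arrays, 0 had a larger difference than AU018549, 4 a larger one than AI845688, 14 a larger one than AI851276 and 194 a larger one than AW538859. Without arrays 2 and 4 the mean log2 ratios were 1.08 for AI845688, 0.93 for AI851276, 0.68 for AU018549, 0.77 for AW538859 and 0.45 for AI853651, so all 5 means were above 0 and AW538859 lay among the other bright clones. These arrays had the lowest red signal over background of the whole series, and its part in the ratios was not tested.

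The bright clones moved together over the arrays in 3 cases out of 4. The Pearson correlation of the log2 ratios over the 6 arrays was 0.95 between AI845688 and AI851276, 0.96 between AI851276 and AU018549 and 0.87 between AI845688 and AU018549. For AW538859 it was 0.64 with AI845688, 0.42 with AI851276 and 0.20 with AU018549. The clones share RNA, dye and slide on each array, and 6 arrays give these values little precision.

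Print blocks, the areas of the slide spotted by single pins, differed in their mean ratio, and this touched the Malat1 clones unequally. The mean log2 ratio over all spots of a block was 0.56 in block 48, which holds AI853651 and is the highest of the 48 blocks. It was 0.47 in block 32 (AI845688), 0.23 in block 35 (AI851276), 0.12 in block 33 (AU018549) and 0.06 in block 19 (AW538859). The dim clone, at 0.44, thus lay below its block mean, and on single arrays it was at the 33.6 to 58.6 percentile of its block. The bright clones lay above their block means by more than the block means themselves, but on array 5 AI845688 was at only the 27.1 percentile and AW538859 at the 67.4 percentile of their blocks.

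**Figure D3:**
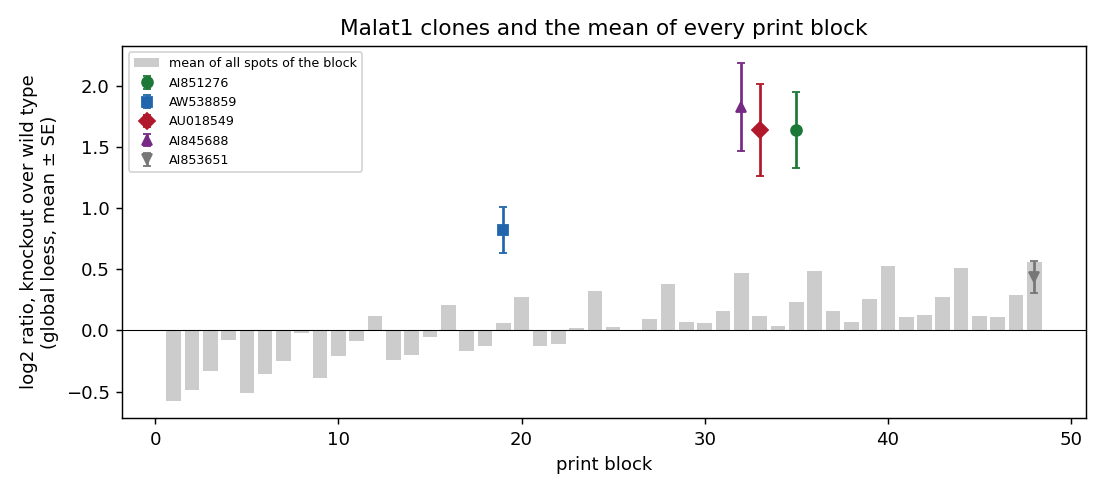
Mean log2 ratio of knockout over wild type (vertical axis) of all spots in each of the 48 print blocks (grey bars, horizontal axis) and of the 5 Malat1 clones at their blocks (points with the moderated SE of limma), after global loess. AI853651, at 0.44, lies just under the bar of block 48, the highest at 0.56, and the 4 bright clones lie above their bars.

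Fitting each block by itself with print-tip loess lowered all 5 clones. AU018549 kept a mean of 1.41 ± 0.43 (SE, n = 6), with ratios of 0.34, 3.12, 0.55, 3.54, 0.28 and 0.65 on arrays 1 to 6, all above 0. AI845688 came to 1.09 ± 0.38 with ratios of 0.48, 2.76, 0.54, 2.70, -0.36 and 0.43, and AI851276 to 1.01 ± 0.35 with ratios of 0.36, 2.48, 0.35, 2.62, -0.05 and 0.28. Outside arrays 2 and 4 these 3 clones lay between -0.36 and 0.65.

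AW538859 had a print-tip mean of 0.48 ± 0.13 (SE, n = 6), above 0 on 5 of 6 arrays. AI853651 had a print-tip mean of 0.05 ± 0.09 (SE, n = 5), with signs that differed between arrays. AW538859 alone passed the threshold, where 6.75% of all clones tested were called higher, and AU018549 alone was higher on every array measured, where 10.9% of all clones tested were higher and 11.3% lower on every array. The mean over clones was 0.81 with an SD over arrays of 0.98. By array it was 0.30, 2.25, 0.35, 2.02, -0.03 and 0.41, with AI853651 again missing from array 2. With print-tip loess and without arrays 2 and 4 the clone means were 0.46 for AU018549, 0.30 for AW538859, 0.27 for AI845688, 0.23 for AI851276 and 0.02 for AI853651. The direction of the bright clones was the same in these settings and the size was not.

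The authors' own log2 ratios, with the sign turned to knockout over wild type and each array centred, gave another order. They were 0.69 for AI845688, 0.43 for AU018549, 0.41 for AI851276, 2.15 for the dim clone AI853651 and -0.46 for AW538859. The mean of AW538859 therefore turned in direction in the authors' table, and the dim clone, highest there, was lowest after global loess. AU018549 and AW538859 were each above 0 on only 2 of 6 arrays in that table. AI845688 was above 0 on 4 of 6, AI851276 on 5 of 6 and AI853651 on 5 of 5. The authors' ratios were matched by subtracting the local background once more from intensities already background-subtracted, with a floor of 1. For the dim clone on array 4, red was 45.4 and its background 85.9, so its red value became that floor. The part of this step in the order of the clones was not tested. Centring each array on its median, with no curve, gave 1.37, 1.12 and 1.14 for AI845688, AI851276 and AU018549, 0.62 for AI853651 and 0.26 for AW538859.

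A range of 1.39 on the log2 scale separated the highest from the lowest Malat1 clone. Of the 252 genes with at least 5 tested clones, 22 had a larger range, and the median range of the others was 0.87, with 10th and 90th percentiles of 0.49 and 1.34. With print-tip loess the range was 1.36 against a median of 0.51, and 3 genes had a larger one. Only 6 genes had more than 1 clone of signal 13 or more. The range between the bright Malat1 clones was 1.01 and the median range of the other such genes was 0.10. Malat1 had 4 such clones and the other genes needed only 2. A range grows with the number of clones, so these ranges are not like for like. The 461 clones of signal 13 or more had a median log2 ratio of 0.13 with global loess and 36.9% of them were called higher, against 16.2% of all clones. With print-tip loess their median was 0.07 and 18.0% were called higher, against 6.75% of all clones. Bright clones were thus called higher more often than clones in general, and the part of brightness in the Malat1 ratios was not tested.

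**Figure D4:**
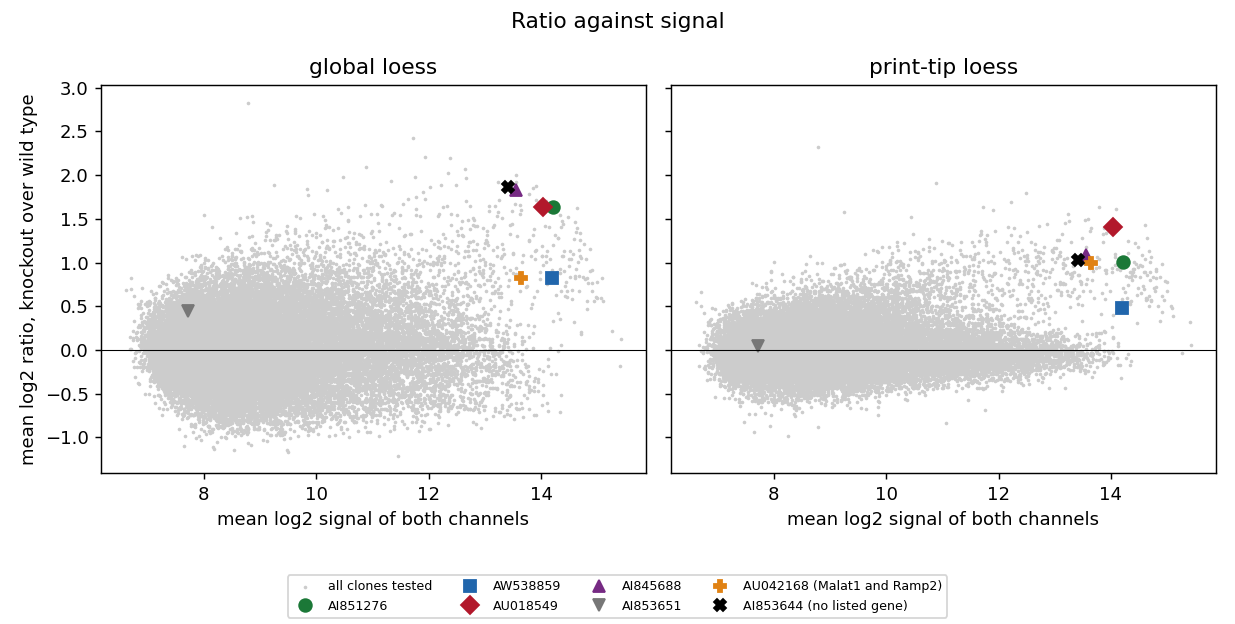
Mean log2 ratio of knockout over wild type (vertical axis) against mean log2 signal of both channels (horizontal axis) for all clones tested (grey) and the Malat1 clones (coloured), with global loess (left) and print-tip loess (right). The bright Malat1 clones lie at signals of 13.56 to 14.22 with ratios of 0.82 to 1.83 (left), AW538859 the lowest of them, and AI853651 lies at 7.72 within it.

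A pair of further bright spots share an annotation or a title with the Malat1 clones. AU042168, in block 21, is annotated to Malat1 and Ramp2 together and was therefore no member. Ramp2 encodes a partner of the calcitonin receptor-like receptor. Its mean log2 signal was 13.65, its ratios were 0.48, 1.57, 0.74, 1.72, 0.20 and 0.18 on arrays 1 to 6, and its mean was 0.82 ± 0.20 with global loess and 1.00 ± 0.21 with print-tip loess (SE, n = 6), above 0 on all 6 arrays in both. AI853644, in block 40, has no listed gene and the title of AI851276. It had a signal of 13.42, ratios of 0.81, 2.72, 1.64, 3.04, 0.51 and 2.44, and means of 1.86 ± 0.28 and 1.03 ± 0.30. It was highest on arrays 2 and 4, as AI845688 and AI851276 were, and its red intensity on array 4 was 797.9. The mean of arrays 2 and 4 minus that of the others was 1.53 for AI853644 and 1.24 for AU042168. Of the 429 clones of signal 13 or more measured on all 6 arrays, 68 and 108 had a larger difference. Many bright clones thus shared this pattern, and which RNA these spots read was not tested.

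Genes whose ratios ran most like those of Malat1 were sought among 3660 genes with at least 2 clones measured on all 6 arrays. The measure was the Pearson correlation with the mean over Malat1 clones, which lacks AI853651 on array 2. The closest were Arih1, a ubiquitin ligase (0.993), the nuclear RNA-binding protein Hnrnpu (0.993), the mRNA export adaptor Fyttd1 (0.992), the phosphatase 2A scaffold subunit Ppp2r1a (0.992) and the phosphatase Ptpn11 (0.989). Hnrnpu had mean ratios of 0.39, 1.24, 0.50, 1.15, 0.14 and 0.75, and Arih1 of 0.10, 0.67, 0.13, 0.70, 0.01 and 0.37, so both were highest on arrays 2 and 4 at lower levels than Malat1. Fyttd1 reached 0.37 and 0.40 on these arrays, Ppp2r1a 0.97 and 0.88, and Ptpn11 0.41 and 0.43. In all, 192 of the 3660 genes had a correlation above 0.9 with Malat1 over these 6 arrays. The clones of each of the 5 genes differed among themselves, from -0.15 to 0.60 for Arih1 and from 0.04 to 1.45 for Hnrnpu.

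Of the other long noncoding RNAs, 24 of 55 listed were measured, each by its brightest clone. With global loess 5 were called higher in the knockout (Neat1, Meg3, Snhg7, Snhg11 and Firre) and 5 lower (Snhg5, Snhg14, Gas5, Oip5os1 and Tug1), where 30.4% of all clones tested were called, 16.2% higher and 14.2% lower. Their median log2 ratio was -0.10 and that of all clones was 0.02. With print-tip loess 3 were called higher (Meg3, Snhg7 and H19) and 1 lower (Airn), where 11.4% of all clones were called, 6.75% higher and 4.62% lower. Over all clones the print-tip calls fell to 1 when array 2, 3 or 6 was left out, so the print-tip calls named here and below rest on these arrays. With global loess the calls of the list thus went both ways in equal number. Clones of 1 gene could disagree: the H19 clone called higher with print-tip loess was at -0.12 with global loess (adjusted p = 0.537), where 2 of the 7 H19 clones were called lower and 0 higher. Of the 4 Gas5 clones, 1 was called higher (0.45) and 1 lower (-0.53), and the latter was at 0.01 with print-tip loess. The calls of Snhg5, Snhg11, Snhg14, Firre, Oip5os1 and Tug1 were each lost when at least 1 single array was left out. Firre was at 0.46 and above 0 on 6 of 6 arrays with global loess. With print-tip loess its sign turned, to -0.17 and above 0 on 0 arrays, and Snhg11 fell from 0.47 to 0.01. Snhg5, Snhg14, Oip5os1 and Tug1 stayed below 0 with print-tip loess, at -0.17, -0.18, -0.11 and -0.26. Adjusted p-values here and below are those of limma with Benjamini-Hochberg adjustment over all clones tested.

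Neat1, whose RNA builds the paraspeckles, had global loess ratios of 0.13, 1.05, 0.23, 1.30, 0.30 and 1.40 on arrays 1 to 6. It was higher on 6 of 6 arrays, with a mean of 0.73 ± 0.18 (SE, adjusted p = 0.00885). The print-tip mean was 0.45 ± 0.14 (adjusted p = 0.0653), and without arrays 2 and 4 the global mean was 0.51 (adjusted p = 0.125). Meg3, an imprinted noncoding RNA, had ratios of -0.22, 0.94, 0.72, 1.24, 0.57 and 0.54 and a mean of 0.63 ± 0.16 (adjusted p = 0.0119), and 0.86 ± 0.17 with print-tip loess (adjusted p = 0.0277). Its brightest clone lost the call without array 4 (adjusted p = 0.0536), and only 2 of its 8 clones were called higher. Snhg7, a host of small nucleolar RNAs, had ratios of 0.54, 0.71, 0.57, 1.12, 0.50 and 0.93, close to each other, and a mean of 0.73 ± 0.13 (adjusted p = 0.00191). It kept its call with print-tip loess (0.28 ± 0.07, adjusted p = 0.0433) and without arrays 2 and 4 (0.63, adjusted p = 0.0348). The scanner title of the Snhg7 clone gives a weak similarity to the kinase JAK3. That of the Firre clone names polyglutamine binding protein 1. Which RNA these clones read was not tested.

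Among the proteins of the nuclear speckles, where Malat1 resides, 36 of 42 listed were measured. With global loess 12 were called higher and 3 lower, with a median log2 ratio of 0.18, and with print-tip loess 6 were called higher and 0 lower, with a median of 0.21. These counts stand beside the 16.2% and 6.75% of all clones called higher, and no test of the difference was made. Clk3, a kinase that phosphorylates SR splicing factors, had ratios of 0.05, 1.89, 1.04, 2.25, 0.65 and 1.98 and a mean of 1.31 ± 0.24 (adjusted p = 0.00232). It was called higher with print-tip loess (1.10 ± 0.23, adjusted p = 0.029) and without arrays 2 and 4 (0.93, adjusted p = 0.0303). Acin1, a component of splicing-dependent complexes, had ratios of 0.59, 1.34, 0.87, 1.43, 0.57 and 0.14, with a mean of 0.82 ± 0.16 (adjusted p = 0.00351) and a print-tip mean of 1.11 ± 0.17 (adjusted p = 0.0226). Without arrays 2 and 4 it was 0.54 and lost the call (adjusted p = 0.067). Other Acin1 clones went down to -0.16.

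The SR proteins bind exonic enhancers and set splice site choice. Srsf5 had ratios of 0.27, 1.41, 0.93, 0.93, 0.44 and 0.28, above 0 on 6 of 6 arrays, with a mean of 0.71 ± 0.16 (adjusted p = 0.00565) and a print-tip mean of 0.54 ± 0.12 (adjusted p = 0.0299). Without arrays 2 and 4 it was 0.48 and lost the call (adjusted p = 0.0965), as did all others of the named list genes except Snhg7 and Clk3. Srsf4 had ratios of -0.31, 0.89, 0.53, 0.79, 0.35 and 1.55, with a mean of 0.63 ± 0.19 (adjusted p = 0.0214) and a print-tip mean of 0.72 ± 0.15 (adjusted p = 0.0291). Its call was lost when array 2, 4 or 6 was left out (adjusted p up to 0.0645). Tra2a, an SR-like splicing activator, had ratios of 0.13, 1.28, 1.00, 0.77, 0.09 and 0.22, with a mean of 0.58 ± 0.17 (adjusted p = 0.0182) and a print-tip mean of 0.46 ± 0.11 (adjusted p = 0.0365). It lost the call without array 2, 3 or 4 (adjusted p up to 0.0689), and the scanner title of its clone names a phosphatidylethanolamine binding protein. The 3 members called lower with global loess were the speckle scaffold Srrm2 (-0.84) and the kinases Prpf4b (-0.61) and Cdk12 (-0.57), and none of these was called with print-tip loess. Of the 4 Srrm2 clones, 2 were called higher (up to 0.69) and only the brightest lower, a call that was lost without array 4 or 6.

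Paraspeckle proteins, 25 of 30 listed, gave 2 calls higher and 2 lower with global loess and a median of 0.06, and 1 higher and 0 lower with print-tip loess and a median of 0.10, where 16.2% of all clones were called higher and 14.2% lower with global loess and 6.75% and 4.62% with print-tip loess. Hnrnpr, an RNA-binding protein, had ratios of -0.53, 1.40, 0.61, 1.16, 0.65 and 0.85 and a mean of 0.69 ± 0.20 (adjusted p = 0.0185), a call lost without array 2 or 4 (adjusted p up to 0.07) and with print-tip loess (0.57 ± 0.18, adjusted p = 0.064). Nudt21, a subunit of cleavage factor I, which guides poly(A) site choice, had ratios of -0.03, -0.64, -0.63, -0.96, -0.23 and -1.15. It was below 0 on 6 of 6 arrays with a mean of -0.61 ± 0.15 (adjusted p = 0.00978), and the print-tip mean was -0.26 ± 0.10 (adjusted p = 0.0981). These values are of the brightest of 3 Nudt21 clones. Only 1 of the 3 was called lower and 0 higher with global loess, and the highest was at 0.34.

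The enzymes that make the 3' end of Malat1 were measured by 12 of 15 listed genes. With global loess 1 was called higher and 1 lower, with a median of -0.07, and with print-tip loess 0 were called, with a median of -0.05. Of all clones, 30.4% were called with global loess and 11.4% with print-tip loess. Rpp40, a protein subunit of RNase P, had ratios of 0.22, 2.23, 1.14, 2.20, 0.72 and 0.31, again highest on arrays 2 and 4, and a mean of 1.14 ± 0.24 (adjusted p = 0.00493). With print-tip loess it was 0.76 ± 0.24 (adjusted p = 0.0666). Elac2, the long form of RNase Z, had ratios of 0.22, -0.16, -0.47, -0.72, -0.86 and -0.50 and a mean of -0.41 ± 0.15 (adjusted p = 0.0459). Its call was lost when array 2, 3, 4, 5 or 6 was left out (adjusted p up to 0.148), and its sign turned with print-tip loess (0.16 ± 0.09, adjusted p = 0.232). Of the 2 Elac2 clones, the other was at 0.17 with global loess.

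On the chromosome, 18 of the 30 genes nearest to Malat1 (15 on each side in RefSeq order) were measured. Their median log2 ratio was 0.28 with global loess, against 0.02 for all clones, and 0.02 with print-tip loess. The 2 members called higher with global loess, where 16.2% of all clones were, were Neat1 and Ehbp1l1, an adaptor of endosomal transport. Ehbp1l1 had ratios of 0.09, 0.23, 0.39, 0.90, 0.19 and 1.56 and a mean of 0.56 ± 0.18 (adjusted p = 0.0295), lost without array 3, 4 or 6 (adjusted p up to 0.0985), and its print-tip mean was -0.03 ± 0.11 (adjusted p = 0.881). Frmd8, a regulator of a shedding protease complex, was at 0.33 with global loess (adjusted p = 0.0568) and was called lower at -0.38 with print-tip loess (adjusted p = 0.0324), so that its direction depended on the normalization. With print-tip loess 4.62% of all clones were called lower. Of the 2 Frmd8 clones, the other was at 0.48 with global loess and was called higher.

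**Figure D5:**
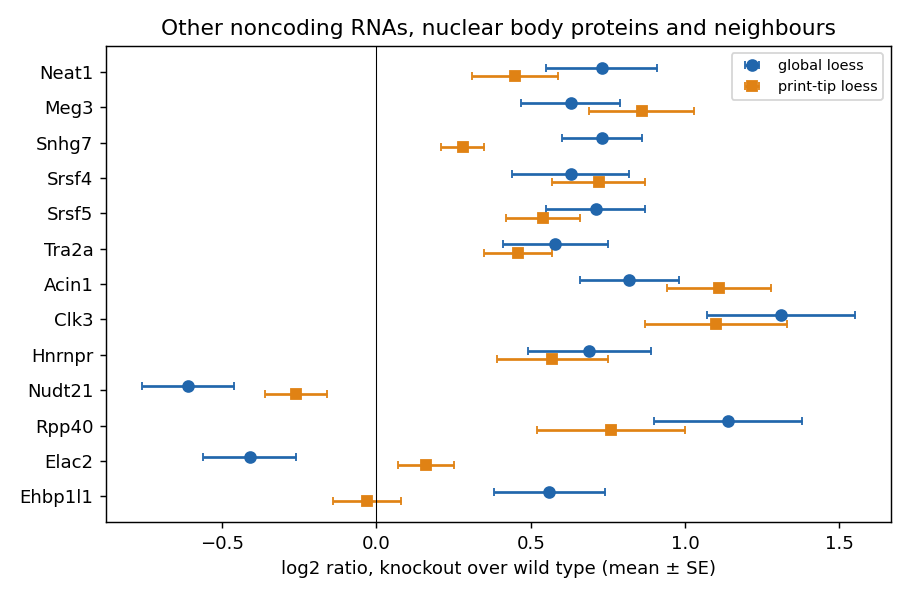
Mean log2 ratio of knockout over wild type with its moderated SE from limma (horizontal axis) for 13 genes of the lists (vertical axis), after global loess (blue circles) and print-tip loess (orange squares). Clk3 and Acin1 lie well above 0 with both, Elac2 changes side, and Ehbp1l1 falls to -0.03 with print-tip loess.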

How the data were processed

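Adrenal RNA of PACAP +/+ and PACAP -/- mice was hybridised to 6 arrays of 37632 spots. Per the series design text, the authors subtracted background and kept ratios with a quality score above 0.3. The deposited red and green intensity columns are background-subtracted, and the deposited quality score runs from 0 to 1. The deposited value table holds the authors' log2 ratio of red over green. These ratios were recomputed from the deposited intensities by subtracting the local background once more, flooring at 1 and dividing by a constant per array. Of the 35873 rows of the value table, 99.8% matched 1 spot within 0.002, which linked spots to the annotation. Software versions of the authors' steps are not given in the sources used here.

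Intensities were floored at 1 and normalized by global loess in limma 3.58.1 (R 4.3.3), with control spots at weight 0 and quality above 0.3. Spots of 1 clone were averaged. Clones with at least 4 arrays were tested against 0 by lmFit and eBayes, Benjamini-Hochberg threshold 0.05, a procedure tested on simulated data. The brightest clone stands for a gene in a list. Symbols were updated by Entrez ID through RefSeq. Alternatives were print-tip loess, median centring, other quality thresholds, the authors' table and arrays left out. Print-tip loess combined with leaving out arrays 2 and 4, and leaving out AI853651, were added after seeing the data.

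Malat1 and the gene lists were chosen with earlier results of these data known. Named were all Malat1 clones, Neat1, list members called in 1 direction with both loess fits (at most 6), otherwise the 2 called with the largest ratios, and the 5 genes with the most similar profile. The other calls of a list were named after their values were seen. The number of arrays limits the precision.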

Additional observations from a re-analysis of the deposited data

How the results depend on the processing

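The 8735 clones called in all became 3264 with print-tip loess, 2079 without arrays 2 and 4, 74 with both, and 90 in the authors' table. They were 9431 with median centring and 7436 with no quality filter. Leaving out 1 array gave 4480 (without array 4) to 8659 calls with global loess and 1 (without array 2, 3 or 6) to 3760 with print-tip loess. The Malat1 mean of 1.28 ranged from 1.05 to 1.47 with 1 array left out and was 0.26 with print-tip loess and without arrays 2 and 4. The range between its clones, 1.39, was 1.03 to 1.68 with 1 array left out and 2.61 in the authors' table. The 5 clones of one sign stayed 5 with any array left out and were 1 with print-tip loess (also without arrays 2 and 4), 2 with median centring and 1 in the authors' table. Calls over every clone have more members than calls over genes, so their counts are given with the number measured. Calls for long noncoding RNAs (10 of 24 genes) were 4 with print-tip loess, 0 in the authors' table and 1 without arrays 2 and 4. They were 16 of 47 over every clone and 4 to 10 with 1 array left out (6 without array 3, 4 without array 4). For speckle proteins (15 of 36 genes) they were 6, 0, 2, 39 of 99 clones and 10 to 15. For paraspeckle proteins (4 of 25 genes) they were 1, 0, 0, 15 of 57 clones and 2 to 5 (2 without array 2 or 4), and 2 with no quality filter. For the 3' end enzymes (2) they were 0, 0 and 0, with 4 after median centring and 1 to 2 with 1 array left out (1 without array 2, 3, 4 or 5). For the neighbours (2) they were 1, 0 and 0, with 5 after median centring, 1 with no quality filter and 1 to 4 with 1 array left out (4 without array 1, 1 without array 3, 4 or 6). The causes were not tested. Each array holds 1 wild-type and 1 knockout RNA in 1 ratio, so the test of the ratios against 0 was paired by array. The weak red signal of arrays 2 and 4 limits every ratio that rests on them.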
